A study of Rattus norvegicus with 26 samples.

Results

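Rasgrp1, Mest and L1cam, 3 of the 32883 genes in the count table and 3 of the 17990 that passed the filter on low counts, were described across the 8 groups of the series. They were chosen by the comparison of +MSC-4w with +PBS-4w, in which they ranked as the 3 genes with the smallest p (L1cam the first, Mest the second and Rasgrp1 the third), so their values at 4 weeks post-transplantation (wpt) are given as a description without a test. RNA was measured in spinal cord segments of 5 mm from female Sprague-Dawley rats of postnatal day 70 and 250 g. The 26 libraries comprised 4 Intact (intact or sham rats), 3 sub-SCI (rats with a spinal cord injury, taken at the time of transplantation) and the vehicle-treated (+PBS) and stem cell-treated (+MSC) rats. The +PBS libraries numbered 3 at 1 wpt (+PBS-1w), 2 at 2 wpt (+PBS-2w) and 4 at 4 wpt (+PBS-4w), and the +MSC libraries 3 (+MSC-1w), 3 (+MSC-2w) and 4 (+MSC-4w). All groups other than Intact had been injured by an aneurysm clip of 60 g closed for 1 min at the thoracic cord. At day 7 after the injury, +MSC rats received hUC-MSCs (mesenchymal stem cells of human umbilical cord) intrathecally and +PBS rats the vehicle. The transplanted cells are human cells in a rat host, and by the study's methods the rats were given cyclosporin A to suppress rejection. The study's methods describe biological replicates for each condition. The labels do not say which library came from which rat, so the p-values measure the spread between these libraries.

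The 3 genes have different roles. RasGRP1, the product of Rasgrp1, is a guanine nucleotide exchange factor that loads Ras with GTP after calcium and diacylglycerol have brought it to the membrane. It is best known from T cells, where it links the antigen receptor to the ERK kinases, and it is also made by neurons. Mest (mesoderm specific transcript) encodes a protein of the alpha/beta hydrolase fold and is an imprinted gene, transcribed from the paternal allele. L1CAM, the product of L1cam, is an adhesion molecule of the immunoglobulin superfamily on axons and growth cones, where it acts in axon growth and bundling, and its gene is X-linked.

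Per length as the count table gives it, L1cam had the highest level of the 3 in the intact cord and Rasgrp1 the lowest. Levels are given as CPM, read counts scaled to a common library size and normalized by TMM. Divided by the gene length in the count table, the Intact levels were 4.87 ± 0.783 CPM per kb for Rasgrp1 (length 3628 bases), 23.0 ± 3.67 for Mest (999 bases) and 39.0 ± 1.82 for L1cam (5862 bases; SD, n = 4 each). The length given for Mest is a multiple of 3 and may cover the coding part only. How this bears on its level per kb and on its place above Rasgrp1 was not tested. The raw counts behind these levels were between 300 and 474 reads per Intact library for Rasgrp1, between 411 and 605 for Mest and between 4237 and 5716 for L1cam. In the sub-SCI libraries they were down to 66, 89 and 1191 reads, so L1cam was measured with the least counting error.

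Because the 3 genes moved together, the sequences just upstream of their annotated starts are shown where the RefSeq promoter table (assembly GRCr8, while the counts were made on Rnor6) holds them, which was the case for Rasgrp1 and Mest. Each run holds the 250 bases before the start, 5′ to 3′ on the strand of the gene, and capitals mark matches to the GC box (GGGCGG or CCGCCC).
Rasgrp1, chr3:124684080-124684329, minus strand: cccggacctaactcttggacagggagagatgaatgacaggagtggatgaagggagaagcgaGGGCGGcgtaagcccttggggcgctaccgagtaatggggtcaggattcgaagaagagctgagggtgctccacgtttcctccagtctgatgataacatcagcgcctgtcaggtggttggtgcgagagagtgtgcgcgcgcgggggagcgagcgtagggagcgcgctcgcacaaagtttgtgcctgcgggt
Mest, chr4:60321564-60321813, plus strand: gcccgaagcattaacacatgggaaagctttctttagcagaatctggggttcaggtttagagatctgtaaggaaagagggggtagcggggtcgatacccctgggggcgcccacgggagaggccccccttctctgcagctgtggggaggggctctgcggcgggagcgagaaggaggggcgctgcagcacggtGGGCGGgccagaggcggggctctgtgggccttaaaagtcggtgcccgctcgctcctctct
Both windows held 1 GC box, which begins 189 bases before the start in Rasgrp1 and 60 bases before it in Mest. Such a box was present in 30.5% of the 33469 promoter windows of this length. The E-box CACGTG (5.59% of all windows), the TATA box TATAAA (12.9%) and the CCAAT box (34.0%), searched on both strands, had no match in either window. The Rasgrp1 window held 20 CpG dinucleotides and the Mest window 15, against a median of 5 over all windows. GC content was 60.4% and 64.0%, with a median of 51.2%.

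All 3 genes were lower in the injured cord at the time of transplantation than in the intact cord, to about the same share for Rasgrp1 and Mest. Rasgrp1 was at 16.4, 16.0, 21.9 and 16.4 CPM in the Intact libraries and at 2.82, 4.10 and 2.24 CPM in sub-SCI. Mest was at 22.4, 22.2, 28.0 and 19.2 CPM in Intact and at 4.21, 4.53 and 3.02 CPM in sub-SCI. For L1cam the Intact values were 231, 223, 242 and 217 CPM and those of sub-SCI 63.7, 64.3 and 40.4 CPM. The groups did not overlap for any of the 3 genes, and the third sub-SCI library was the lowest for each. The sub-SCI means were 17.3%, 17.1% and 24.6% of the Intact means. The log2 fold changes were -2.53 ± 0.221 for Rasgrp1 (SE; adjusted p = 4.40e-09), -2.55 ± 0.207 for Mest (adjusted p = 1.60e-09) and -2.02 ± 0.161 for L1cam (adjusted p = 1.25e-09; edgeR's quasi-likelihood test, adjusted by the Benjamini-Hochberg method over all genes tested). Genes were called differentially expressed (DEGs) where the log2 fold change was beyond 1 in either direction with an adjusted p below 0.01. The 3 genes were thus lower DEGs, as were 17.5% of all genes tested. In these bulk samples, fewer cells of a type and less RNA per cell cannot be told apart.

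**Figure D1:**
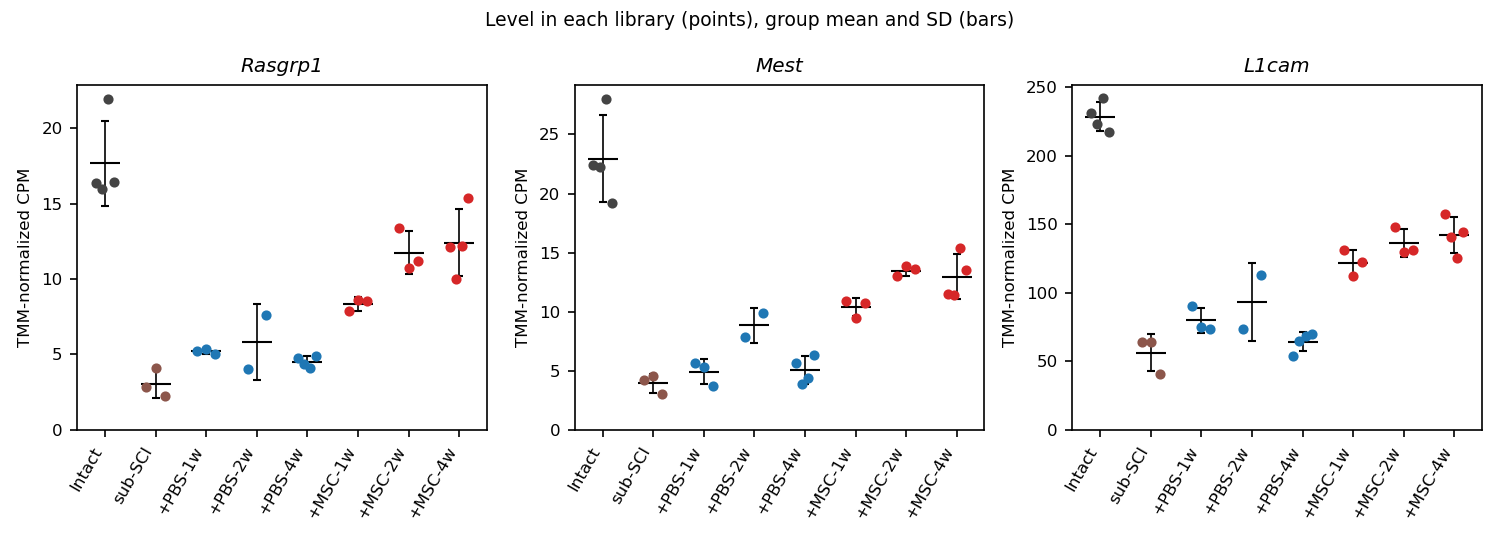
TMM-normalized CPM (vertical axis, linear from 0) of Rasgrp1, Mest and L1cam in each of the 26 libraries (points) by group (horizontal axis), with the group mean and SD (bars; n = 2 to 4). All +MSC points lie above the +PBS points of the same week, and all Intact points above the +MSC points.

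In cords that received the vehicle, the 3 genes stayed below the intact level at each week. Rasgrp1 was at 5.20, 5.33 and 5.04 CPM in +PBS-1w and at 4.03 and 7.62 CPM in +PBS-2w. Mest was at 5.68, 5.33 and 3.68 CPM and then at 7.81 and 9.91 CPM. L1cam was at 90.4, 75.2 and 73.8 CPM and then at 73.3 and 113 CPM. The second +PBS-2w library was higher than the first for each of the 3. Against Intact, the log2 fold changes at 1 wpt were -1.77 ± 0.213 (Rasgrp1), -2.22 ± 0.203 (Mest) and -1.52 ± 0.158 (L1cam), with edgeR adjusted p = 7.03e-07, 1.57e-08 and 9.49e-08. At 2 wpt Rasgrp1 was 3.03-fold lower than in Intact (95% interval of the log2 fold change from the SE, -2.08 to -1.12), and the log2 fold changes of Mest and L1cam were -1.37 ± 0.226 and -1.29 ± 0.181, with edgeR adjusted p = 3.63e-05, 7.94e-05 and 1.22e-05. Each of these 6 differences was a lower DEG, beside 12.5% of all genes at 1 wpt and 5.66% at 2 wpt. With the first +PBS-2w library left out, the L1cam value at 2 wpt was -0.99 and the Mest value -1.19, and neither was then a DEG. Without all libraries labelled replicate 1, none of the 3 was a DEG at 2 wpt (log2 fold changes -1.23, -1.20 and -0.99, edgeR adjusted p = 0.0156, 0.0229 and 0.00368). At 4 wpt the +PBS means were 25.6%, 22.0% and 28.1% of Intact, and 10.7% of all genes were lower DEGs, a contrast that shares libraries with the one used to choose the genes.

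Against the cord at transplantation, 1 of the 6 differences of the vehicle-treated cords at 1 and 2 wpt was a DEG. At 1 wpt the log2 fold changes over sub-SCI were 0.77 ± 0.222 for Rasgrp1, 0.32 ± 0.207 for Mest and 0.51 ± 0.162 for L1cam (edgeR adjusted p = 0.0626, 0.427 and 0.0871), and none was a DEG, where 0.05% of all genes were higher DEGs. At 2 wpt only Mest was a higher DEG (1.17 ± 0.225, edgeR adjusted p = 0.00147), among 3.34% of all genes, with 0.94 ± 0.243 for Rasgrp1 and 0.73 ± 0.178 for L1cam (edgeR adjusted p = 0.0108 and 0.00718). The Mest call was lost without the second +PBS-2w library or without the third sub-SCI library (log2 fold changes down to 0.99). The 3 genes were not tested against each other in this comparison.

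In cords that received hUC-MSCs, Rasgrp1, Mest and L1cam were above the vehicle level in every library of both early weeks. The differences at these weeks were not used to choose them, but the spread behind the choosing p was estimated over all 26 libraries, so the choice favoured genes with little spread at these weeks too. Rasgrp1 was at 7.84, 8.64 and 8.55 CPM in +MSC-1w and at 13.4, 10.7 and 11.2 CPM in +MSC-2w. Mest was at 10.9, 9.48 and 10.8 CPM and then at 13.0, 13.8 and 13.6 CPM. L1cam was at 131, 112 and 122 CPM and then at 148, 130 and 131 CPM. For each gene the lowest +MSC library was above the highest +PBS library of its week, a pattern shown by 15.3% of all genes tested at 1 wpt, by 18.6% at 2 wpt and by 8.32% at both. Averaged over 1 and 2 wpt, the log2 fold changes of +MSC over +PBS were 0.85 ± 0.165 for Rasgrp1 (1.80-fold), 0.84 ± 0.154 for Mest (1.79-fold) and 0.58 ± 0.122 for L1cam (1.49-fold), with edgeR adjusted p = 0.0110, 0.00955 and 0.0158. None met the DEG rule, since each lay under a doubling, and Rasgrp1 and L1cam also missed its limit on the adjusted p. Of all genes, 0.0389% were higher DEGs. At an adjusted p under 0.05, a level applied after the values had been seen, the 3 genes were among 4.25% of all genes. Reassigning the +MSC and +PBS labels within 1 wpt and within 2 wpt in all ways gave p = 0.005 for each gene on log2 CPM (exact permutation test, two-sided). It is the smallest that the 200 regroupings can give. As +MSC and +PBS did not overlap in either week, no regrouping could give a larger positive difference, so this p restates that pattern. Without the first +PBS-2w library the 3 log2 fold changes were 0.64, 0.74 and 0.42 and the edgeR adjusted p were 0.208, 0.166 and 0.215, so the adjusted p rested on this library.

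**Figure D2:**
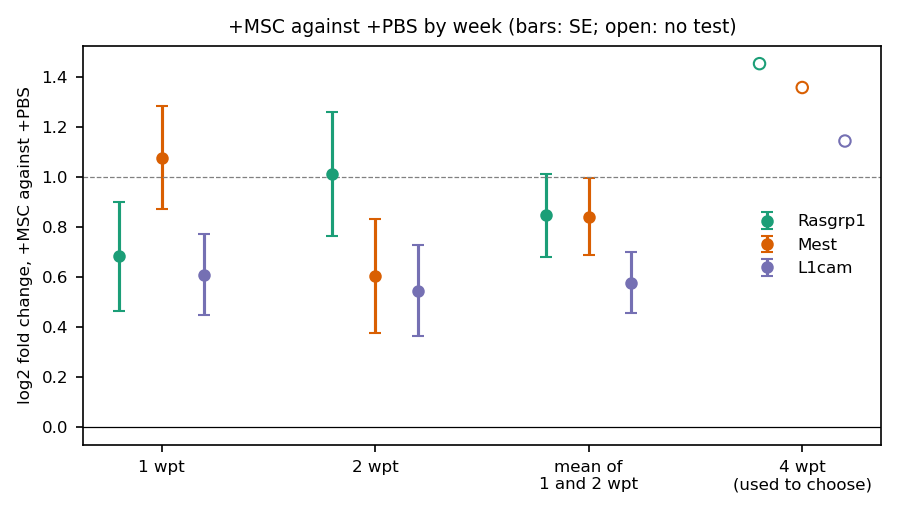
Log2 fold change of +MSC over +PBS (vertical axis) for the 3 genes at 1 wpt, 2 wpt, the mean of 1 and 2 wpt, and 4 wpt (horizontal axis). Bars are SE from the edgeR fit, the dashed line marks a doubling, and the open points at 4 wpt carry no error because that contrast chose the genes. The means of 1 and 2 wpt lie between 0.58 and 0.85.

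Taken by week, the difference was estimated less firmly. At 1 wpt it was 0.68 ± 0.218 for Rasgrp1, 1.08 ± 0.206 for Mest and 0.61 ± 0.162 for L1cam (edgeR adjusted p = 0.130, 0.0347 and 0.0842). At 2 wpt it was 1.01 ± 0.249, 0.60 ± 0.229 and 0.55 ± 0.183 (edgeR adjusted p = 0.168, 0.311 and 0.277). The values at 2 wpt rested on the pair of +PBS-2w libraries: Rasgrp1 was at 0.63 without the first and 1.54 without the second, and L1cam at 0.27 and 0.89. None was a DEG by edgeR, where 0.0% of all genes were higher DEGs at either week, although 1899 and 988 genes were higher at an unadjusted p under 0.05. DESeq2 on all libraries called 30 higher DEGs at 1 wpt, Mest among them (log2 fold change 1.04, adjusted p = 0.000379), and 3 at 2 wpt. The change in the difference from 1 to 2 wpt was 0.33 ± 0.326 for Rasgrp1 (95% interval from the SE, -0.31 to 0.97), -0.48 ± 0.303 for Mest (-1.07 to 0.12) and -0.06 ± 0.242 for L1cam (-0.54 to 0.41), each with an edgeR adjusted p of 1.00. These intervals span 0 and are wide against the differences themselves.

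At 4 wpt, the values that chose the 3 genes were these. Rasgrp1 was at 4.77, 4.34, 4.12 and 4.86 CPM in +PBS-4w and at 12.1, 9.99, 12.2 and 15.4 CPM in +MSC-4w. Mest was at 5.66, 3.85, 4.34 and 6.33 CPM and at 11.5, 11.4, 15.4 and 13.5 CPM. L1cam was at 54.1, 64.8, 68.1 and 69.7 CPM and at 157, 140, 126 and 144 CPM. No +MSC-4w library was as low as any +PBS-4w library for these genes, as for 6.08% of all genes tested. The log2 fold changes were 1.46, 1.36 and 1.15, and 0.495% of all genes were higher DEGs in this contrast. Just outside the choice, the fourth gene by p was Adam23, with a log2 fold change of 1.39 and means of 48.2 CPM in +PBS-4w and 126 CPM in +MSC-4w.

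The +MSC cords lay between sub-SCI and Intact. Over sub-SCI, the 3 genes were higher DEGs in +MSC-1w (log2 fold changes 1.45 ± 0.223, 1.40 ± 0.208 and 1.12 ± 0.163 for Rasgrp1, Mest and L1cam) and in +MSC-2w (1.95 ± 0.226, 1.78 ± 0.209 and 1.28 ± 0.164), with edgeR adjusted p of 0.000114 or less. Of all genes, 6.46% were higher DEGs in the first of these contrasts and 11.0% in the second. The L1cam call in +MSC-1w was lost without the third sub-SCI library (0.93). Against Intact, Rasgrp1 and Mest were lower DEGs in +MSC-1w (-1.08 ± 0.206 and -1.15 ± 0.193, edgeR adjusted p = 0.000394 and 0.000107), beside 2.63% of all genes, and L1cam was not (-0.91 ± 0.154, edgeR adjusted p = 0.000119). Without the third Intact library, the highest for Rasgrp1, the Rasgrp1 value was -0.96 and no longer a DEG. In +MSC-2w none was a DEG, as were 0.461% of all genes, with -0.59 ± 0.203, -0.77 ± 0.191 and -0.75 ± 0.153 (edgeR adjusted p = 0.0462, 0.00615 and 0.00124). In +MSC-4w the means were 70.3%, 56.4% and 62.1% of Intact, and 1.53% of all genes were lower DEGs.

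The order of the group means was close to the same for the 3 genes. Intact was the highest and the +MSC groups came next. For Rasgrp1 and L1cam the order went on from +MSC-4w to +MSC-2w, +MSC-1w, +PBS-2w, +PBS-1w, +PBS-4w and sub-SCI. For Mest, +MSC-2w was above +MSC-4w and +PBS-4w above +PBS-1w. Neighbours in the order whose libraries overlapped, with a gap of means within the larger SD, were +MSC-4w and +MSC-2w for each gene and +PBS-2w and +PBS-1w for Rasgrp1 and L1cam. The same held for the +PBS-4w, +PBS-1w and sub-SCI neighbours in Mest and for +PBS-4w and sub-SCI in L1cam. For Rasgrp1, +MSC-1w and +PBS-2w did not overlap, but their means differed by less than the SD of the 2 +PBS-2w libraries.

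Neuron markers moved with the 3 genes. The 15 markers (among them Rbfox3, Snap25, Syt1, Nefl, Map2, Gad1 and Slc17a6) were all above 0 in each group, and their summed level was 12831 to 15319 CPM in Intact, 646 to 2888 in sub-SCI, 1591 to 3603 in +PBS-1w, 3454 and 6704 in +PBS-2w, 4865 to 9597 in +MSC-1w and 7883 to 11628 in +MSC-2w. Of the 15, 14 were lower DEGs in sub-SCI against Intact, as were 17.5% of all genes tested (median log2 fold change -2.98, all genes -0.02). All 15 had a positive log2 fold change in +MSC against +PBS over 1 and 2 wpt (median 0.99), and none was a DEG. The mean of the 15 was higher in +MSC by 1.03 in log2 CPM (exact two-sided permutation within weeks, p = 0.005, the smallest it can give). Taken relative to this mean in the same library, a measure added after the data were seen, Rasgrp1 differed between +MSC and +PBS by -0.16 (p = 0.555), Mest by -0.18 (p = 0.415) and L1cam by -0.44 (p = 0.025, the same exact permutation test, unadjusted for the 3 genes). By week, these differences were -0.53 at 1 wpt and 0.21 at 2 wpt for Rasgrp1, of opposite sign. They were -0.11 and -0.25 for Mest and -0.59 and -0.28 for L1cam. Averaged over the 2 weeks, the L1cam difference ranged from -0.50 to -0.31 with each library left out (p up to 0.1, same permutation test). Also relative to the neuron markers, the L1cam mean was 0.93 above Intact in sub-SCI (SD of the libraries 0.59, n = 3) and 0.75 above it in +PBS-1w (SD 0.43, n = 3). The Rasgrp1 mean was 0.44 above Intact in sub-SCI (SD 0.62) and 0.53 above it in +PBS-1w (SD 0.51), both about as large as the spread. That of Mest lay between -0.10 and 0.45 of Intact in every group. The mean was highest in sub-SCI (SD 0.66), and the SD was largest in +PBS-4w (0.71).

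In 1 vehicle library the neuron markers were high and the 3 genes were not. Because the 3 genes were chosen by their p at 4 wpt, a gene that was high in this library would hardly have been chosen, so the following is a description of values the choice used. In the first +PBS-4w library the summed neuron markers were at 8173.5 CPM, within the range of the +MSC-4w libraries (7733 to 9563), while the other +PBS-4w libraries were at 2247 to 3101. In it, 14 of the 15 markers were above all other +PBS-4w libraries. Rasgrp1 (4.77 CPM), Mest (5.66) and L1cam (54.1) were there within or below the range of the other +PBS-4w libraries. Relative to the neuron markers, +MSC-4w minus +PBS-4w was 0.21, 0.15 and -0.07 for Rasgrp1, Mest and L1cam with this library and -0.16, -0.19 and -0.55 without it.

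**Figure D3:**
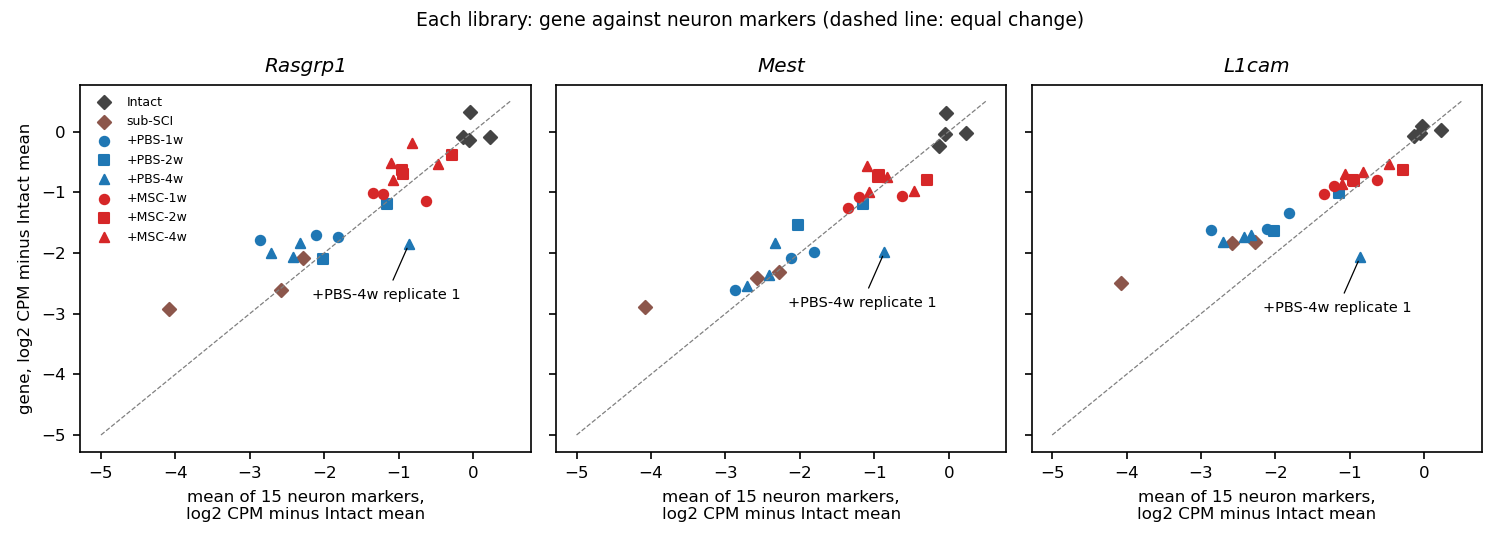
Log2 CPM of each gene minus its Intact mean (vertical axis) against the mean log2 CPM of 15 neuron markers minus its Intact mean (horizontal axis), 1 point per library, coloured by Intact, sub-SCI, +PBS and +MSC and shaped by week. The dashed line marks equal change. The first +PBS-4w library, with the neuron markers at -0.87 and L1cam at -2.08, lies below it in all 3 panels. Other libraries stand off it on the upper side, such as the third sub-SCI library (neuron markers at -4.08, L1cam at -2.50).

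Markers of other cell types moved in other ways, and their part in the levels of the 3 genes was not tested. The counts of DEGs in sub-SCI against Intact, here and for the gene lists that follow, stand beside 16.6% higher and 17.5% lower DEGs among all genes tested. T cell markers, given because Rasgrp1 is known from T cells, were all 9 higher DEGs in sub-SCI against Intact, with sums of 193 to 213 CPM against 2.46 to 4.29 CPM, in the group where Rasgrp1 was lowest. Over 1 and 2 wpt their median log2 fold change in +MSC against +PBS was -0.33. Of the fibroblast markers, 9 of 9 were higher DEGs in sub-SCI, and their median in +MSC against +PBS was -1.51. Microglia and macrophage markers had 9 of 11 higher DEGs in sub-SCI and a median of -0.36 in +MSC against +PBS. Endothelial markers had 4 of 7 higher DEGs and a median of -0.42, with Cldn5 at 0 in all groups. The 6 Schwann cell markers had 1 higher DEG and a median of -0.39. Oligodendrocyte markers had 7 of 10 lower DEGs and a median of 0.29, and astrocyte markers 4 of 8 lower DEGs and a median of 0.34. The 3 B cell markers were near 0, with sums of at most 6.65 CPM. None of these markers was a DEG in +MSC against +PBS at any week or over 1 and 2 wpt.

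Rasgrp1 belongs to a family of 4 genes, which did not move alike after injury. Rasgrp2 was a lower DEG in sub-SCI against Intact (-1.39 ± 0.251, edgeR adjusted p = 6.06e-05), Rasgrp4, known from mast cells and other myeloid cells, a higher DEG (1.84 ± 0.293, edgeR adjusted p = 1.34e-05), and Rasgrp3 neither (-0.31 ± 0.177). Per length, Rasgrp3 was the most abundant of the 4 in Intact (28.0 CPM per kb), followed by Rasgrp2 (17.1), Rasgrp1 (4.87) and Rasgrp4 (1.13). Rasgrf1, a calcium-dependent exchange factor of neurons, was a lower DEG as well (-2.96 ± 0.427, edgeR adjusted p = 4.01e-06). Over 1 and 2 wpt, +MSC minus +PBS was 0.38, 0.23 and -0.47 for Rasgrp2, Rasgrp3 and Rasgrp4 (edgeR adjusted p = 0.217, 0.323 and 0.206) and 0.99 for Rasgrf1 (0.0548). The 6 exchange factors other than Rasgrp1 had 1 higher and 2 lower DEGs in sub-SCI and a median of 0.25 in +MSC against +PBS.

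Genes that make, remove or answer to diacylglycerol changed in both directions after injury. Diacylglycerol kinases, which convert diacylglycerol to phosphatidic acid, had 4 lower and 0 higher DEGs of 9 in sub-SCI (Dgkg, Dgkb, Dgke and Dgki, log2 fold changes -3.45 to -2.04). Dgkg was also a higher DEG in +MSC-4w against +PBS-4w (1.27) and stood at 0.96 over 1 and 2 wpt (edgeR adjusted p = 0.0199). The phospholipase C enzymes, which release diacylglycerol, had 4 higher DEGs (such as Plcb2, 3.56) and 3 lower (such as Plcb1, -1.88) of 10 in sub-SCI, and a median of -0.20 in +MSC against +PBS. Protein kinase C enzymes, which answer to diacylglycerol, had 2 higher (such as Prkcd, 2.26) and 4 lower DEGs (such as Prkce, -2.85) of 7 and a median of 0.12. Downstream, the Ras proteins had 2 higher DEGs (Rras and Rras2) and 1 lower (Mras) of 6, with a median of -0.10 in +MSC against +PBS, and the Ras GTPase-activating proteins had 2 lower DEGs of 8 (Nf1 and Rasal1) and a median of -0.03. The Raf-MEK-ERK kinases and their feedback genes had 3 higher and 3 lower DEGs of 19 in sub-SCI, Ksr2, a scaffold of the pathway, being the lowest (-3.96), a share in each direction near that of all genes (16.6% higher and 17.5% lower), and a median of 0.06. The median over all genes tested was -0.01 in +MSC against +PBS, and apart from Dgkg none of these pathway genes was a DEG in +MSC against +PBS at any week.

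Among other imprinted genes, 10 of 20 tested were lower DEGs and 1, Igf2r, a higher DEG in sub-SCI against Intact (all genes, 17.5% lower and 16.6% higher), with a median log2 fold change of -1.21. The lower ones included the paternally expressed Peg3 (-2.48 ± 0.235), Usp29 (-2.93 ± 0.340), Zdbf2 (-2.98 ± 0.311), Dlk1 (-2.39 ± 0.490) and Ndn (-1.81 ± 0.403). Mest, at -2.55, lay within their range. Over 1 and 2 wpt, 12 of the 20 had a positive log2 fold change in +MSC against +PBS, with a median of 0.21 and a range from -1.58 (Igf2) to 1.24. Zdbf2 stood at 1.05 ± 0.229 (edgeR adjusted p = 0.0168) and was a higher DEG at 4 wpt (1.45). Copg2, the gene next to Mest on one side and itself imprinted in some tissues, differed by -0.84 ± 0.111 in sub-SCI and by 0.24 ± 0.0878 in +MSC against +PBS (edgeR adjusted p = 1.40e-06 and 0.0875), and Cep41, on the other side, by 0.26 and -0.05 (edgeR adjusted p = 0.192 and 0.861). Neither neighbour was a DEG in these comparisons.

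L1cam is one of 4 genes of the L1 family, and in sub-SCI Nrcam was a lower DEG beside it (-1.49 ± 0.173, edgeR adjusted p = 2.22e-07). Chl1, the close homolog of L1, and Nfasc, which encodes neurofascin of the axon initial segment and node of Ranvier, differed by -0.01 ± 0.280 and -0.33 ± 0.337 (edgeR adjusted p = 0.982 and 0.409). Over 1 and 2 wpt, +MSC minus +PBS was 0.37 for Nrcam, 0.11 for Chl1 and -0.12 for Nfasc (edgeR adjusted p = 0.0813, 0.800 and 0.825). Per length, Nfasc was the most abundant in Intact (88.6 CPM per kb), with L1cam (39.0) and Nrcam (36.4) close to each other and Chl1 lowest (10.1). The neighbours of L1cam in the annotation, Pdzd4 and Avpr2, were lower DEGs in sub-SCI as well (-2.16 and -2.23, edgeR adjusted p = 5.68e-05 and 2.63e-05), with 0.82 and 0.49 in +MSC against +PBS over 1 and 2 wpt (edgeR adjusted p = 0.0821 and 0.279).

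Genes of proteins that bind L1 on neighbouring membranes or inside the axon, or that cut it, had DEGs in both directions after injury, against 17.5% lower and 16.6% higher among all genes. Contactins, Ncam1, Ncan and the integrin subunits Itgb1 and Itgav had 7 lower DEGs of 10 in sub-SCI (all 6 contactins and Ncam1, Cntn5 the lowest at -4.41). They had 2 higher DEGs (Ncan and Itgb1, Ncan at 1.62) and a median of 0.40 in +MSC against +PBS. Of the cytoplasmic partners, the ankyrins Ank1, Ank2 and Ank3, which tie L1 to the spectrin skeleton, and Dcx were lower DEGs, whereas Ezr and Msn, which link membranes to actin, were higher DEGs (1.75 and 1.92). Ank1 was the one gene of these lists that was a higher DEG in +MSC against +PBS over 1 and 2 wpt (1.11 ± 0.185, edgeR adjusted p = 0.00721) and it was one at 4 wpt (1.20), and the median of the 7 partners was 0.39. The semaphorin 3A receptor complex had 2 higher DEGs (Nrp1 and Plxna1) and 1 lower (Plxna4) of 6 and a median of -0.02. Of the proteases that shed L1, Adam17 was a higher DEG (1.37) and Bace1 a lower DEG (-1.13), with a median of -0.29 in +MSC against +PBS.

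**Figure D4:**
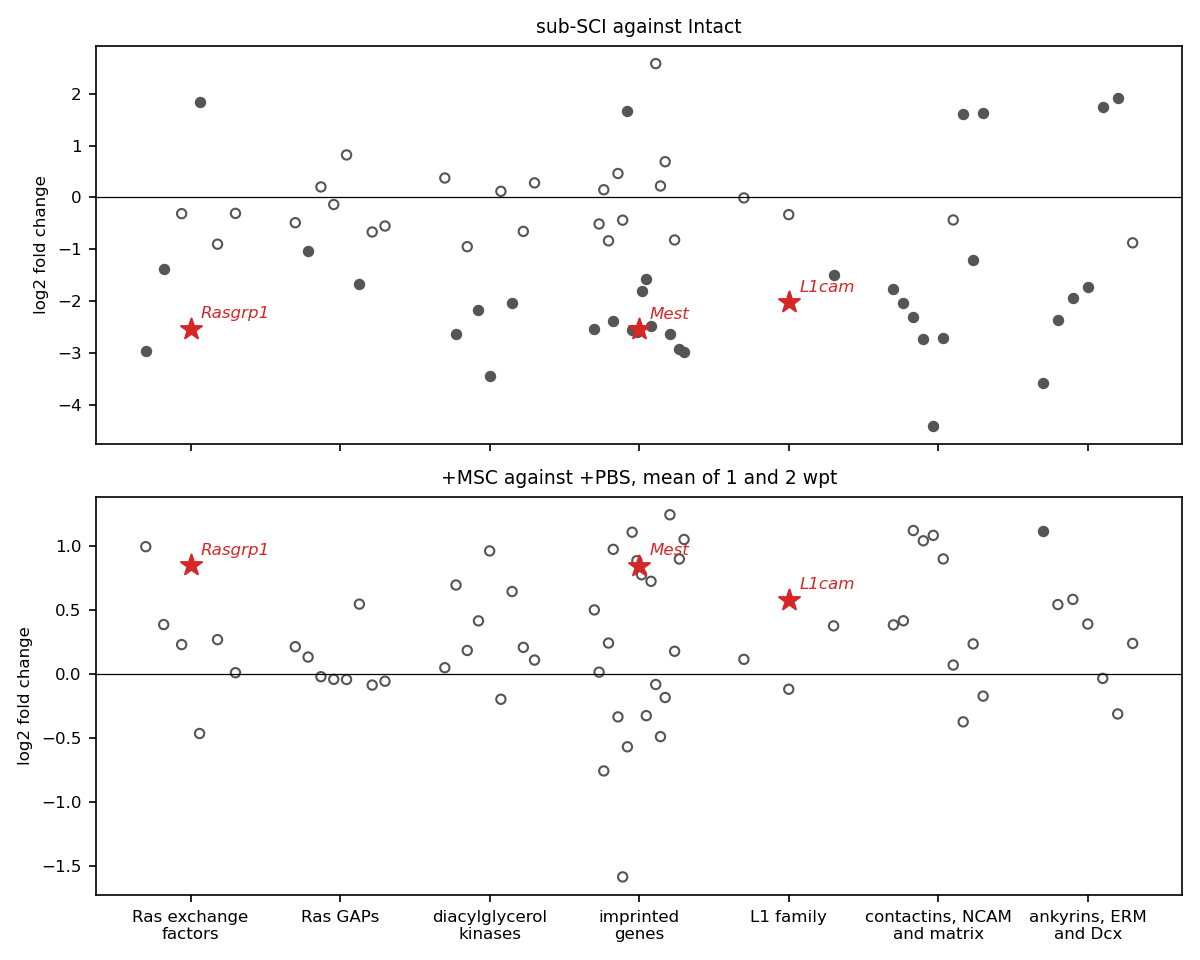
Log2 fold change (vertical axis) of the genes of 7 lists (horizontal axis) in sub-SCI against Intact (upper panel) and in +MSC against +PBS over 1 and 2 wpt (lower panel). Filled circles are DEGs, open circles are not, and stars are the 3 genes, at -2.53, -2.55 and -2.02 above and at 0.85, 0.84 and 0.58 below.

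The genes whose levels ran most like each of the 3 over the 26 libraries were picked by Pearson's r of log2 CPM, as a description, since the libraries share groups and the injury separates them. For Rasgrp1 they were Aak1 (r = 0.971), Zfhx4, Slc8a3, Ryr2 and Dgkg (0.962). Slc8a3 encodes a sodium-calcium exchanger and Ryr2 a calcium release channel. For Mest they were Pcyt1b (r = 0.976), Rimkla, Osbpl6, Pnma2 and St8sia1 (0.969). For L1cam they were Adam23 (r = 0.982), Lmtk2, Adam22, Cacng2 and Add2 (0.972), of which Adam22 and Adam23 encode receptors of the secreted synaptic protein LGI1. After the group means were taken out, r with these 15 genes was 0.65 to 0.87. Between the 3 genes themselves r was 0.949 (Rasgrp1 and Mest), 0.960 (Rasgrp1 and L1cam) and 0.951 (Mest and L1cam), and within groups 0.59, 0.63 and 0.42. The +MSC-4w and +PBS-4w libraries that chose the 3 genes are among the 26, so part of the likeness over all libraries was built in. Among 17989 genes ranked by r to Rasgrp1, L1cam was number 9 and Mest number 60. For Mest, L1cam was number 36 and Rasgrp1 number 41, and for L1cam, Rasgrp1 was number 56 and Mest number 119. With the mean of the neuron markers r was 0.907, 0.918 and 0.899. The choice of the leading genes was loose: by Spearman's rho 1, 4 and 1 of the 5 were kept for Rasgrp1, Mest and L1cam. After the group means were taken out it was 0, 0 and 1, and without the libraries labelled replicate 1 it was 0, 2 and 0.

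**Figure D5:**
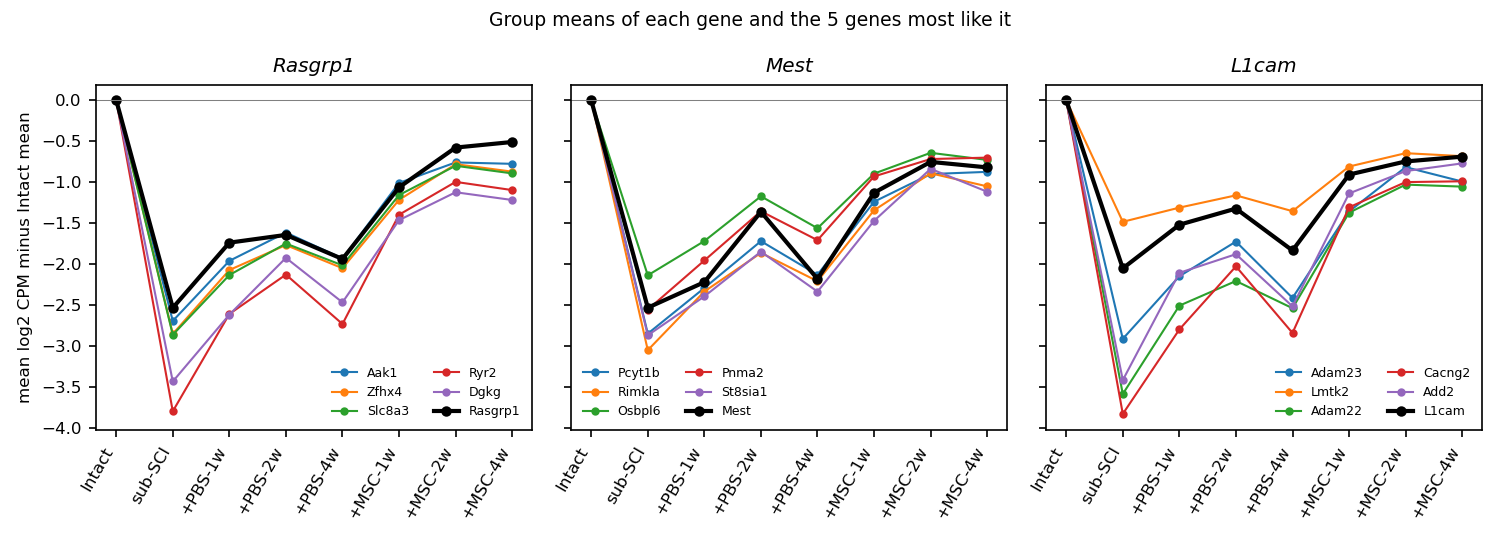
Group means of log2 CPM minus the Intact mean (vertical axis) over the 8 groups (horizontal axis) for each of the 3 genes (black) and the 5 genes most like it (coloured). The lines fall together in sub-SCI, stay low in +PBS and lie higher in +MSC, with Rasgrp1 at -0.51, Mest at -0.83 and L1cam at -0.69 in +MSC-4w.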

How the data were processed

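RNA sequencing of poly(A) libraries was analysed in 26 samples, grouped by their labels. The authors trimmed reads with Trim Galore 0.5.0, used HISAT2 2.1.0 first against GRCh38 to discard human reads and then against Rnor6, filtered for properly paired alignments (SAMtools 1.9) and summed them by gene (featureCounts 1.6.4). The deposited table by the authors thus holds raw counts, not normalized. The annotation release and strand setting are not given in the sources used here, so reads of overlapping genes may be mixed. In the RefSeq annotation (GRCr8, used for names and neighbours only) no gene overlapped the 3 genes. Of their 6 neighbours, Fam98b and LOC134486427 beside Rasgrp1 were not matched by name in the count table. The study's methods name 2 repeats for +MSC-2w, whereas the labels give 2 +PBS-2w libraries, and the labels were followed. The study's results speak of 3 +MSC-2w samples, as the labels do. They also describe a +PBS-2w sample as an outlier that grouped with the +MSC-2w samples.

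Total counts were 19496602 to 43468509 per library. Values of 26 of 26 single-library files equalled those of the joint table, and no 2 libraries of a group agreed within sampling noise. Counts were fitted in R 4.3.3 with edgeR 4.0.16 (filterByExpr, TMM, glmQLFit and glmQLFTest, 1 model with the 8 groups, no covariates) after trials on simulated counts. Log2 CPM used a prior count of 2. Single values were compared by exact permutation within weeks. Contrasts against Intact share the Intact libraries, and those against sub-SCI the sub-SCI libraries.

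The 3 genes and the 22 gene lists (202 other genes, 192 tested, with Gnas left out for having 2 rows) were chosen with earlier results of these data known. The genes named are the 3 genes, their paralogs, list genes called DEGs, the 5 most like genes and the nearest annotated genes, with a few list genes beside them that were chosen after their values were seen. Alternatives were DESeq2 1.42.0 or edgeR on all libraries or on the groups compared, RLE size factors, no filter, a minimum of 10 counts per library, blocking on the replicate number, a term for replicate 1, no replicate 1 libraries and each library left out. Counts behind each level bound its precision by counting error only.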

Additional observations from a re-analysis of the deposited data

Results flagged for a closer look

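In the third Intact library Rasgrp1 was at 21.9 CPM, apart from the other 3 Intact libraries (16.0 to 16.4 CPM). The gap to the nearest library made up 0.927 of the range of the group. In all, 9 sets of a gene and a group of 4 libraries were examined in this way, and chance alone marks about 1 in 20 such sets. Mest was also highest in that library (28.0 CPM). Without it, Rasgrp1 in +MSC-1w against Intact was -0.96 in log2 fold change and no longer a DEG.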

How the results depend on the processing

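Over 9 alternatives and the loss of each of the 26 libraries, the sub-SCI against Intact, +PBS-1w against Intact and +MSC-2w against sub-SCI differences kept direction and call for Rasgrp1, Mest and L1cam. Mest in +MSC-1w against +PBS-1w became a DEG with DESeq2 on all libraries (1.04) or on the groups compared (1.06). Mest in +PBS-2w against sub-SCI was not a DEG with edgeR on the groups compared (1.16). Without the libraries labelled replicate 1, +PBS-2w against Intact gave -1.23 (Rasgrp1), -1.20 (Mest) and -0.99 (L1cam), none a DEG. In that fit +PBS-2w against sub-SCI gave 1.37 for Mest, not a DEG, and 1.09 for L1cam, a DEG, and the change from 1 to 2 wpt for Rasgrp1 was reversed at -0.21. The cause was not tested. This setting leaves 1 +PBS-2w library, assumed to vary like the other groups.

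With each library, or all replicate 1 libraries, left out, the ranges were as follows. For Rasgrp1 they were 0.62 to 1.11 in +MSC against +PBS over 1 and 2 wpt (a DEG without the second +PBS-2w library), -0.21 to 0.86 for the change from 1 to 2 wpt (-0.01 without the first +PBS-2w library), -2.13 to -1.19 in +PBS-2w against Intact, -1.12 to -0.96 in +MSC-1w against Intact, and 0.40 to 1.28 in +PBS-2w against sub-SCI (a DEG without the second sub-SCI or the first +PBS-2w library). For Mest they were -1.55 to -1.19 in +PBS-2w against Intact and 0.99 to 1.37 in +PBS-2w against sub-SCI. For L1cam they were -0.46 to 0.28 for the change from 1 to 2 wpt (above 0 without the second +PBS-2w library), 0.93 to 1.23 in +MSC-1w against sub-SCI, -1.63 to -0.99 in +PBS-2w against Intact and 0.38 to 1.09 in +PBS-2w against sub-SCI. Relative to the neuron markers, L1cam ranged from -0.50 to -0.31 over 1 and 2 wpt, with p above 0.05 in 6 of 11 cases, and without the first +PBS-4w library the 4 wpt difference turned to -0.16 for Rasgrp1 and -0.19 for Mest.

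Same-numbered libraries of different groups deviated together in some pairs and not in others, with correlations from -0.17 to 0.45. The median was 0.171 for number 1 and 0.0639 or less for the others, and 13 of 26 libraries were closest to their own number. Whether libraries of the same number share a source of spread was not tested. The labels do not say that the numbers pair the samples, so the main fit left them out. With the replicate block, +MSC against +PBS over 1 and 2 wpt was 0.86, 0.85 and 0.60 (edgeR adjusted p = 0.00881, 0.00881 and 0.0101), and the higher and lower DEGs were 38 and 45, not 7 and 18. Over all alternatives but single libraries, higher DEGs numbered 0 to 255 in this contrast, 0 to 231 and 0 to 80 at 1 and 2 wpt and 0 to 293 at 4 wpt. Medians of the pathway lists kept within the spread of the libraries in 198 of 208 cases.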
